A study of Homo sapiens with 39 samples.

Results

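IL32, which codes for interleukin 32, was described across parental HCT116 colon cancer cells and 12 derived lines that each carried a different isoform of the nuclear receptor HNF4A. It is 1 of 45435 genes in the deposited tables. It was chosen from its measured levels, because its mRNA separated the lines by isoform, so its own values are given as a description with no test. Its row, named IL32, was read in all 13 tables.

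Interleukin 32 is a cytokine-like protein first cloned from activated natural killer and T cells. Epithelial cells make it when they are exposed to tumour necrosis factor, interferon gamma or interleukin 1, signals that act in part through NF-kB, a family of inflammatory transcription factors. HNF4A is a transcription factor of liver, kidney and gut epithelium. Alternative promoters, named P1 and P2, and alternative splicing give its isoforms different N-termini and C-termini around the same DNA-binding domain.

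RNA was sequenced from 13 groups of 3 libraries, 39 in all. The host cells, called parental, were HCT116 carrying the Flp-In T-REx system, which places a doxycycline-inducible gene at a fixed genomic site, and were kept in blasticidin S at 5 µg/ml and zeocin at 100 µg/ml. Each of the 12 lines had 1 HNF4A isoform fused at its C-terminus to GFP inserted at that site and was kept in blasticidin S at 5 µg/ml and hygromycin B at 100 µg/ml. All groups, the parental cells included, received 2.5 µg/ml doxycycline for 48 h, with the selection antibiotics left out. Each isoform is represented by 1 line, and GFP alone was not among the groups, so isoform, line and fusion protein cannot be told apart. The labels do not say whether the 3 libraries of a group came from separate cultures, so p-values measure the spread between these libraries. In the usual nomenclature, isoforms 1 to 6 come from promoter P1 and isoforms 7 to 12 from P2. Isoforms 4 to 6 include exon 1B, isoforms 10 to 12 have a further N-terminus, isoforms 2, 5, 8 and 11 carry a short insertion in the C-terminal domain, and isoforms 3, 6, 9 and 12 end in a shortened C-terminus. These classes are not given in the labels.

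The IL32 gene lies on the plus strand of chromosome 16, from 3065297 to 3082192 in GRCh38 (GENCODE v29). The annotation lists 35 transcripts, 30 of them protein coding, and 34 of the 35 end at or before 3069819. The deposited table has a single row for all of them, so the transcripts are not separated. The 250 bases before a RefSeq start at 3065403 (GRCh38.p14, chr16:3065153-3065402, plus strand, 5′ to 3′) are printed because the gene level of IL32 differed among lines carrying forms of a DNA-binding factor. The window includes the first GENCODE start at 3065297, and which start was used was not measured. Capitals mark the matches found in a search of both strands.

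IL32 promoter: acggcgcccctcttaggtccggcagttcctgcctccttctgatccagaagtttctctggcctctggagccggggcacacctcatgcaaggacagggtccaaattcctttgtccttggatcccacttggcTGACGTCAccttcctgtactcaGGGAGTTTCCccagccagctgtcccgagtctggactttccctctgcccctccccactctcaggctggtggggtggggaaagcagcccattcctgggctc

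The first match is the cAMP response element TGACGTCA, 121 to 114 bases before the start, a string held by 1.85% of 35116 promoter windows of the same length. The other is the NF-kB consensus, 99 to 90 bases before the start, held by 7.73% of the windows. The 2 matches do not overlap. The exact letters of an HNF4 site, CAAAGTCCA, did not occur in the window (0.384% of windows hold them). A stretch of the minus strand in this window, however, differs from them in the first letter only. Near matches were not searched for, so their share of windows is not known. The nuclear receptor half-site AGGTCA (13.8%), the AP-1 site TGANTCA (7.71%) and the TATA box TATAAA (11.5%) did not occur either. A window before a later annotated start, chr16:3065534-3065783, held none of the 6 motifs. A match describes the letters only, and binding was not measured.

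The deposited values are TPM, transcript abundances corrected for length and scaled to a common library total. TPM carry no read depth, so counting error was not computed for single libraries. Of 3 libraries in a group, each correlated with its closest partner at 0.990 or more over the tested genes. Library 1 of the isoform 3 line stood apart, with summed HNF4A at 407 TPM, while libraries 2 and 3 held 833 and 772 TPM. The transgene row of the matching isoform made up 99.4% or more of HNF4A mRNA in every line library outside isoforms 4 and 5. In the libraries of isoforms 4 and 5, the larger of the rows named for these isoforms was taken. That row also held 99.4% or more, but its share does not show which of these isoforms the line carried. Markers of colorectal epithelium had means of 1 TPM or more for 8 of 8 genes in every group, with a summed level of 2609 to 5801 TPM per library.

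IL32 was close to absent in parental cells and reached its highest level with isoform 1. Isoforms 1, 2, 7, 8, 10 and 11, which have a long C-terminus and lack exon 1B, had line means between 41.6 and 139 TPM. Isoforms 3, 9 and 12, with the shortened C-terminus, had 8.89 to 21.9 TPM. Isoforms 4, 5 and 6, with exon 1B, had 0.668 to 1.70 TPM.

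In the 3 parental libraries IL32 was at 0.446, 0.524 and 0.304 TPM (mean 0.424 ± 0.111, SD, n = 3). The isoform 1 libraries held 148, 122 and 148 TPM (139 ± 14.9, SD, n = 3), a mean 328-fold that of parental cells. Among all rows, ordered by level, IL32 stood between ranks 1029 and 1310 in these libraries and between 17127 and 19022 in parental ones. Isoform 2 followed, with 90.6, 78.5 and 87.8 TPM (85.6 ± 6.33, SD, n = 3; 202-fold). No isoform 2 library reached the lowest isoform 1 library.

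Isoform 10 gave 75.0, 71.3 and 74.0 TPM (73.4 ± 1.93, SD, n = 3; 173-fold). Isoform 11 gave 67.0, 73.9 and 71.7 TPM (70.9 ± 3.54, SD, n = 3; 167-fold). Libraries of these 2 lines overlapped, and all 6 lay below the isoform 2 libraries. Isoform 7 had 45.6, 42.1 and 40.3 TPM (42.7 ± 2.69, SD, n = 3; 101-fold) and isoform 8 had 42.6, 40.1 and 42.2 TPM (41.6 ± 1.34, SD, n = 3; 98.1-fold). These 2 also overlapped each other and no other line.

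In the isoform 3 line IL32 was at 14.5, 28.6 and 22.5 TPM (21.9 ± 7.06, SD, n = 3; 51.6-fold). The lowest of these came from the library with the low HNF4A level. Isoform 9 had 10.5, 10.3 and 10.1 TPM (10.3 ± 0.167, SD, n = 3; 24.3-fold), and isoform 12 had 9.26, 8.47 and 8.94 TPM (8.89 ± 0.397, SD, n = 3; 20.9-fold). The isoform 9 and 12 libraries did not overlap, although their means differed by a factor of 1.16.

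The exon 1B lines came last. Isoform 4 libraries held 2.50, 1.22 and 1.40 TPM (1.70 ± 0.696, SD, n = 3; 4.02-fold the parental mean). Isoform 5 libraries held 1.39, 0.727 and 0.835 TPM (0.986 ± 0.358, SD, n = 3; 2.32-fold). Both sets lay above the parental libraries and overlapped each other. Isoform 6 libraries held 0.437, 0.784 and 0.783 TPM (0.668 ± 0.200, SD, n = 3; 1.57-fold), and the lowest of them fell inside the parental range.

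**Figure D1:**
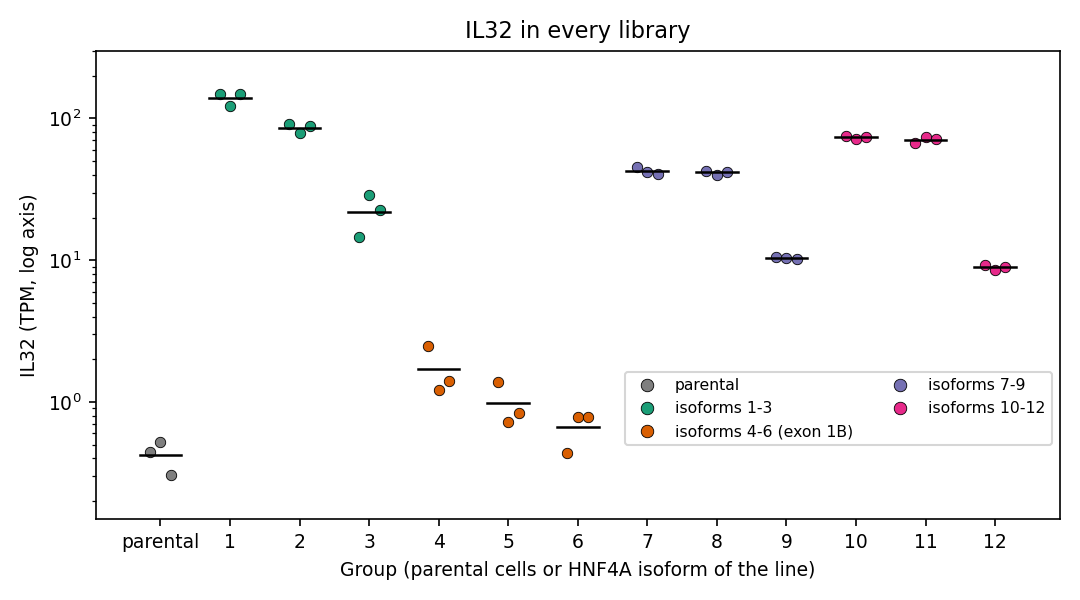
IL32 level (TPM, log axis) in each of 39 libraries by group, with points for libraries and a bar for the mean of 3. The libraries of isoforms 4 to 6 lie between 0.437 and 2.50 TPM, and those of the other 9 lines between 8.47 and 148 TPM.

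On the log2(TPM + 1) scale, differences to parental cells were 6.62 for isoform 1, 5.93 for isoform 2, 5.71 for isoform 10 and 5.66 for isoform 11. They were 4.94 for isoform 7, 4.91 for isoform 8, 3.96 for isoform 3, 2.99 for isoform 9 and 2.80 for isoform 12. The exon 1B lines gave 0.90 for isoform 4, 0.47 for isoform 5 and 0.22 for isoform 6. Each had a standard error of 0.15 from the fit over all groups. Without library 1 of the isoform 3 line, its difference was 4.21. The added 1 compresses the change of a gene that is below 1 TPM in parental cells, so the ratios of TPM means given above are larger.

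The authors' deposited table ranks the lines in nearly the same way. Its log2 fold change of IL32 against parental cells was 7.80 for isoform 1 and 7.01 for isoform 2, then 6.18 for isoform 11 and 6.13 for isoform 10. In the authors' deposited table isoforms 7, 8, 3, 9 and 12 had 5.56, 5.19, 4.24, 2.93 and 2.32, and isoforms 4, 5 and 6 had 0.58, 0.24 and 0.09. All 12 values of the authors' deposited table were smaller than the log2 ratio of TPM means, which was 8.36 for isoform 1 and 4.39 for isoform 12. Whether the authors' values were shrunk is not given in the sources used here.

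Isoform pairs that differ by the same element showed how far each went with IL32. The pair of isoforms 1 and 4 differs by exon 1B, and the mean of isoform 1 was 81.7 times that of isoform 4. The same element separated isoforms 2 and 5 by a factor of 86.9 and isoforms 3 and 6 by 32.7. In each of these 3 pairs the exon 1B line had more HNF4A mRNA, at 1.09, 1.39 and 1.60 times that of its partner.

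The shortened C-terminus went with a lower mean IL32 level behind every N-terminus. The long form exceeded the short form by 6.36 times for isoforms 1 and 3, by 4.14 times for isoforms 7 and 9, and by 8.26 times for isoforms 10 and 12. For isoforms 4 and 6 the factor was 2.55. Libraries did not overlap in any of the 4 pairs. Isoform 6 libraries did overlap those of isoform 5, the exon 1B form with the insertion, and those of parental cells. For the insertion, isoform 1 exceeded isoform 2 by 1.63 times without overlap. The ratios of isoform 4 to 5 (1.73), 7 to 8 (1.03) and 10 to 11 (1.04) came from libraries that overlapped.

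N-termini without exon 1B differed less. Isoform 1 exceeded isoform 7 by 3.26 times, isoform 2 exceeded isoform 8 by 2.06 times and isoform 3 exceeded isoform 9 by 2.12 times. The N-terminus of isoforms 10 to 12 went with more IL32 than that of isoforms 7 to 9 in the long forms, by 1.72 times for isoforms 10 and 7 and by 1.70 times for isoforms 11 and 8. In the short forms the order was the other way round, with isoform 9 at 1.16 times isoform 12. The lines of isoforms 10, 11 and 12 had 0.903, 0.837 and 0.715 times the HNF4A mRNA of isoforms 7, 8 and 9. Per 100 TPM of HNF4A, isoform 12 stood above isoform 9, at 1.32 ± 0.115 and 1.10 ± 0.175 TPM of IL32 (SD, n = 3).

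**Figure D2:**
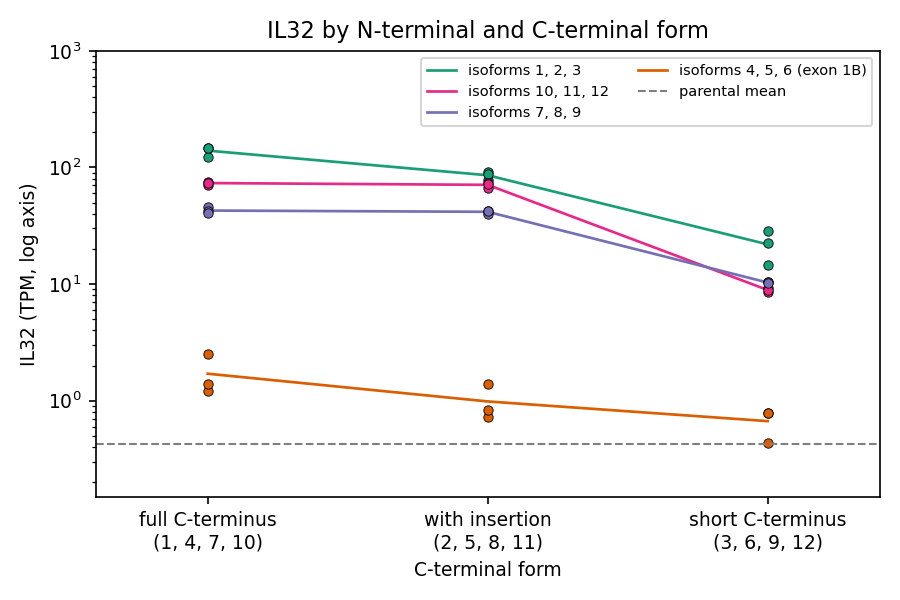
IL32 level (TPM, log axis) by C-terminal form of the isoform, with 1 line per N-terminus through the means, points for the 3 libraries of each group and a dashed line at the parental mean. The short form has the lowest mean behind every N-terminus, but isoform 6 libraries overlap those of isoform 5 and of parental cells. The exon 1B isoforms 4 to 6 have means of 1.70, 0.986 and 0.668 TPM, above the parental mean of 0.424 TPM.

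The amount of HNF4A mRNA did not order the lines as IL32 did. HNF4A, summed over its 12 rows, was at 31.5 ± 0.589 TPM (SD, n = 3) in parental cells. Line means ran from 614 TPM for isoforms 2 and 11 to 1071 TPM for isoform 6. Isoform 6 therefore had the most HNF4A and the least IL32 of the lines. Per 100 TPM of HNF4A, IL32 stood at 17.8 ± 1.86 TPM (SD, n = 3) for isoform 1, at 11.5 ± 0.585 TPM for isoform 11 and at 0.0620 ± 0.0168 TPM for isoform 6. Parental cells had 1.35 ± 0.372 TPM of IL32 per 100 TPM of HNF4A, above the means of isoform 12 (1.32 ± 0.115) and isoform 9 (1.10 ± 0.175), by less than its own SD, and above all 3 exon 1B lines.

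Over the 12 line means, log2 IL32 and log2 HNF4A had a Pearson r of −0.72 and a Spearman rho of −0.64. These points share 1 library design and the TPM scale, and differ in isoform, so the coefficients are descriptions. Over the 10 lines left without isoforms 6 and 9, whose HNF4A levels are the most extreme, r was −0.62. The points fall into clusters by isoform class: without the exon 1B lines r was −0.34 over 9 lines, and over the 6 long forms that remained it was −0.0091. Within lines, deviations from the line mean had r = 0.58 and rho = 0.17 over 36 libraries. Without library 1 of the isoform 3 line, an alternative chosen after seeing the data, r was 0.072 and rho 0.048 over 35 libraries, so the value of r rested on that library. In that line IL32 per 100 TPM of HNF4A was 3.31 ± 0.341 TPM (SD, n = 3), a smaller spread relative to its mean than that of IL32.

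**Figure D3:**
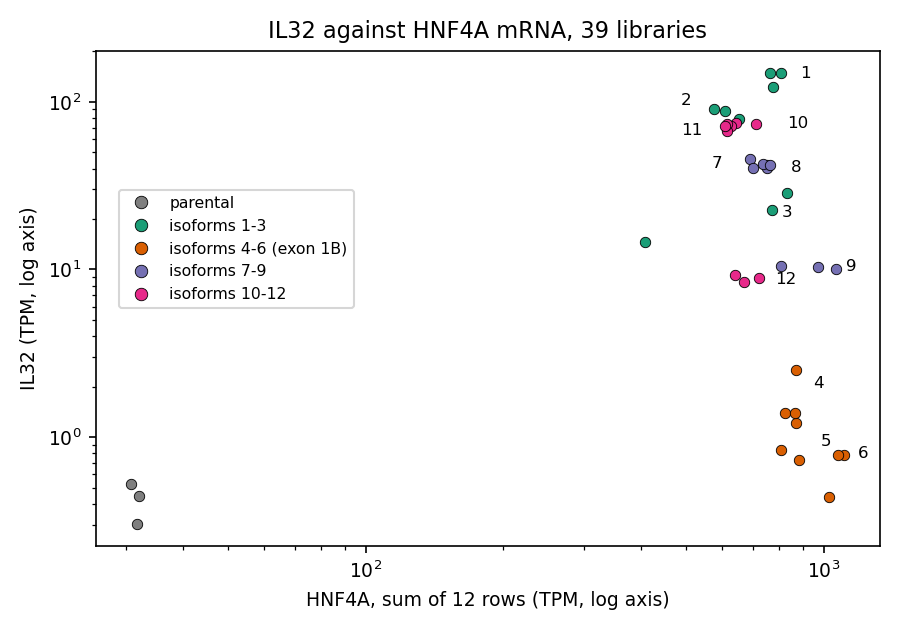
IL32 against summed HNF4A (both in TPM, log axes) for 39 libraries, coloured by class, with the isoform number beside each line's libraries. The exon 1B lines have 852 to 1071 TPM of HNF4A as line means and the least IL32 of the 12 lines.

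Genes around IL32 in known circuits were then compared with parental cells. A gene was called where limma's adjusted p was below 0.05 and the log2(TPM + 1) difference was at least 1 in size. Of 15003 genes with a mean of 1 TPM or more, the called share was 4.52% for isoform 1, 3.73% for isoform 2, 0.807% for isoform 3, 0.54% for isoform 4, 0.293% for isoform 5 and 0.247% for isoform 6. It was 2.08% for isoform 7, 1.41% for isoform 8, 0.827% for isoform 9, 1.44% for isoform 10, 1.7% for isoform 11 and 0.573% for isoform 12. Over the 12 comparisons 2726 of 180036 tests were called (1.51%), 1693 higher and 1033 lower. All comparisons share the 3 parental libraries. The median difference of all genes was −0.11 for isoform 1 and −0.09 for isoform 2, and median-of-ratios scaling moved these medians by 0.12 and 0.11. With that scaling the share of calls that were higher rose from 60.6% to 76.1% for isoform 1, from 63.2% to 73.9% for isoform 2 and from 61.6% to 71.8% for isoform 11. Of the 27 calls of list genes described next, 7 held with a pseudocount of 5: IL4R with isoforms 1 and 2, IL13RA1 and PRKCD with isoform 1, ICAM1 with isoform 2, TNFAIP2 with isoform 7 and IER3 with isoform 10. A filter of 5 TPM left ICAM1, IL7 and IL22RA1, with 14 of the calls, untested.

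TNF, IL1B, IL1A and IFNG, cytokines known to induce IL32, were themselves near 0 in these cells. IL18, also on the list of inducers, is not described here. Group means of TNF were at most 0.0222 TPM, of IL1B at most 0.0282 TPM and of IL1A at most 0.0734 TPM, and IFNG was listed at 0 in every group. Of 19 inducers, receptors and signal carriers, 9 passed the filter, and 3 of their 108 comparisons were called (2.78%, against 1.51% of all tests), 1 higher and 2 lower. The list's median difference over these comparisons was −0.08.

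TNFRSF1A, the main receptor for tumour necrosis factor, was at 39.7, 44.0 and 41.4 TPM in parental cells and at 83.2, 88.9 and 85.3 TPM with isoform 7. It rose by 1.02 ± 0.05 (log2 difference, SE; limma adjusted p = 3.03e-16). With isoform 1 its mean was 80.2 TPM, a log2 difference of 0.93 below the size limit. The isoform 7 call was lost without its library 2 (just under the limit) or without parental library 1 (0.99).

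IRF1, a transcription factor induced by interferons, had 17.0, 20.3 and 15.9 TPM in parental cells. With isoform 1 it had 8.99, 9.17 and 6.76 TPM, and with isoform 2 it had 8.21, 9.39 and 6.75 TPM. Both sets lay below the parental libraries. IRF1 fell by 1.01 ± 0.14 and by 1.04 ± 0.14 (log2 differences, SE; limma adjusted p = 1.79e-07 and 1.36e-07). Neither call held with median-of-ratios scaling (−0.88 and −0.93) or without parental library 2 (−0.92 and −0.95). The isoform 1 call was also lost without its library 3 (−0.89), and the isoform 2 call without its library 3 (−0.93).

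TLR2, a receptor for bacterial lipopeptides, was 1 of 10 list members that did not pass the filter. It was named after its values were seen. Its mean was 0.0376 TPM in parental cells, 1.21 ± 0.108 TPM (SD, n = 3) with isoform 1 and 1.38 ± 0.241 TPM with isoform 10. With the exon 1B isoforms it was 0.0440 to 0.0780 TPM. Levels of TLR2 in the other lines are not given here.

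None of the NF-kB subunits and their kinases was called. All 9 genes were tested, and 0 of 108 comparisons were called with limma, against 1.51% of all tests. At that share a list of this size would hold few calls. An adjusted p below 0.05 was reached by 23 of the 108, 3 higher and 20 lower, all under the size limit. Over all genes 55221 of 180036 tests reached it. Unadjusted p was below 0.05 in 33 (30.6%, against 40.1% of all tests). Differences over the 108 comparisons ran from −0.83 to 0.30, with a median of −0.03. RELA, the subunit of the classical pathway, had a mean of 63.0 TPM in parental cells, 63.2 TPM with isoform 1 and 57.9 TPM with isoform 4. RELB, of the alternative pathway, had 25.0 TPM in parental cells and 13.6 TPM with isoform 2.

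Genes that respond to NF-kB moved mostly downwards where they moved. Of 18 such genes 11 passed the filter, and 11 of their 132 comparisons were called (8.33%, against 1.51% of all tests), 1 higher and 10 lower. Only 3 genes account for these calls: ICAM1, TNFAIP2 and IER3. The median difference of the list was −0.29 over all lines and lay below that of all genes in each of the 12 lines. CXCL8, CXCL1, CXCL2 and CXCL3, chemokines of this group, did not pass the filter, and their group means were at most 1.26 TPM.

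ICAM1, an adhesion molecule of the cell surface, did not follow the order of IL32. Parental libraries held 5.89, 6.68 and 5.80 TPM. It rose with isoform 4, to 15.2, 16.8 and 14.7 TPM (log2 difference 1.22 ± 0.17, SE; limma adjusted p = 5.53e-06). It fell with isoform 2, to 0.377, 0.302 and 0.342 TPM (−2.41 ± 0.17; limma adjusted p = 6.31e-13), and with isoform 5, to 0.839, 0.580 and 0.533 TPM (−2.11 ± 0.17; limma adjusted p = 4.47e-10). Lower calls were also made with isoforms 3, 6 and 12, at −1.34, −1.30 and −1.17. With a pseudocount of 5 the isoform 4 difference was 0.89 and the isoform 5 difference −0.98, both under the size limit, as were those of isoforms 3, 6 and 12. The isoform 3 libraries held 3.99, 1.12 and 1.08 TPM, the highest in the library with the low HNF4A level, and without it the difference was −1.76. Isoform 1, with the most IL32, had 4.29 ± 0.287 TPM of ICAM1 (SD, n = 3), and isoform 4, with little IL32, had the most ICAM1.

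TNFAIP2, a protein of membrane protrusions induced by tumour necrosis factor, was at 22.5, 22.5 and 21.7 TPM in parental cells. It fell with isoform 7 to 7.83, 7.95 and 7.89 TPM (−1.39 ± 0.07; limma adjusted p = 3.73e-16). Lower calls followed with isoforms 1 (−1.16), 9 (−1.15) and 11 (−1.06), the last of which was lost with median-of-ratios scaling (−0.97). In the exon 1B lines its means were 21.1 to 24.7 TPM. IER3, an early response gene that affects cell survival, had a parental mean of 225 ± 14.9 TPM (SD, n = 3) and fell with isoform 10 to 99.1 ± 9.07 TPM (−1.17 ± 0.12; limma adjusted p = 3.66e-09). Its differences in the other lines, −0.99 to −0.36, were below the size limit.

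CCL20, a chemokine for lymphocytes and dendritic cells, was under the filter as well and was also named after its values were seen. It had means of 0.167 TPM in parental cells, 1.98 ± 0.621 TPM (SD, n = 3) with isoform 1 and 1.96 ± 0.524 TPM with isoform 2, and at most 0.0930 TPM with the exon 1B isoforms.

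Partners of interleukin 32 and the cytokines it is reported to induce showed 1 call. Of 22 genes 11 passed the filter, and 1 of 132 comparisons was called (0.758%, against 1.51% of all tests). That gene was PRKCD, protein kinase C delta, a reported binding partner of an interleukin 32 form. It had 38.4, 38.0 and 37.4 TPM in parental cells and 92.1, 80.8 and 86.6 TPM with isoform 1, and rose by 1.17 ± 0.05 (log2 difference, SE; limma adjusted p = 9.81e-18). The isoform 2 mean was 66.7 TPM (0.80) and the isoform 6 mean 38.1 TPM (0.01). Of the reported downstream cytokines, IL6 had group means of at most 0.174 TPM, and TNF and IL1B are given above.

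Other interleukins and their receptors gave 12 calls among 288 comparisons (4.17%, against 1.51% of all tests), 7 higher and 5 lower. The list held 93 names, of which 91 had a row of their own and 24 passed the filter. Only 4 genes were called: 3 receptor chains upwards and 1 ligand downwards.

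IL4R, the shared receptor chain for interleukins 4 and 13, was at 17.8, 17.4 and 17.9 TPM in parental cells. It rose with isoform 1, to 51.7, 47.1 and 50.3 TPM (1.44 ± 0.06, SE; limma adjusted p = 3.09e-19), and with isoform 2, to 46.4, 47.4 and 45.9 TPM (1.35 ± 0.06; limma adjusted p = 1.86e-18). Its partner chain IL13RA1 rose in the same lines, from a parental mean of 26.4 ± 0.770 TPM to 57.9 ± 1.47 TPM and 54.3 ± 1.75 TPM (SD, n = 3), differences of 1.10 and 1.01 (limma adjusted p = 8.21e-14 and 7.65e-13). The isoform 2 call of IL13RA1 was lost without its library 2 (0.99) or without parental library 3 (just below the limit). In the exon 1B lines IL4R means were 17.4 to 20.0 TPM and IL13RA1 means 28.7 to 33.9 TPM.

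IL22RA1, the epithelial receptor chain for interleukin 22, had 2.30, 2.44 and 2.07 TPM in parental cells. It rose with isoform 2 to 8.41, 7.80 and 7.26 TPM (1.43 ± 0.11, SE; limma adjusted p = 3.07e-12), with isoform 1 to a mean of 7.56 TPM (1.38) and with isoform 7 to 5.88 TPM (1.07). Exon 1B lines had means of 2.93 to 3.29 TPM.

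IL7, a growth factor for lymphocytes, went the other way. Parental libraries held 3.69, 3.80 and 3.52 TPM. It fell with isoform 2 to 0.637, 0.797 and 1.14 TPM (−1.34 ± 0.14, SE; limma adjusted p = 2.79e-09), and also with isoforms 8 (−1.24), 7 (−1.16), 10 (−1.08) and 1 (−1.01). The isoform 1 call was lost with median-of-ratios scaling (−0.91), without its library 2 (−0.94) and without parental library 2 (−0.99), and the isoform 10 call without its library 1 (−0.98). In the exon 1B lines means were 2.72 to 4.07 TPM, and with isoform 9 it was at 3.78 ± 0.861 TPM (SD, n = 3).

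**Figure D4:**
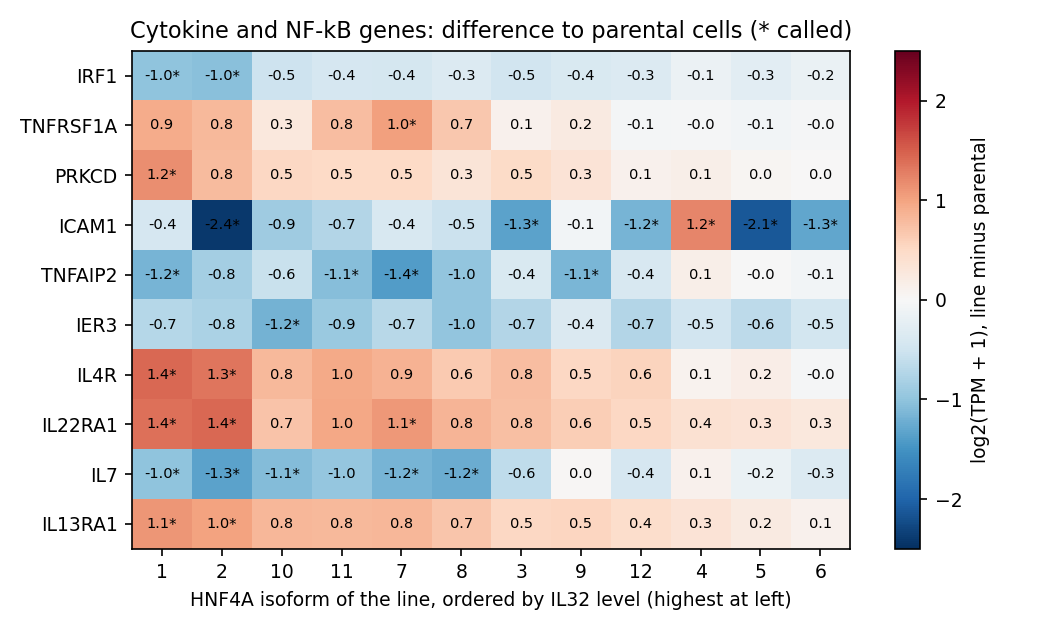
Difference to parental cells (log2(TPM + 1), numbers and colour) for the 10 called list genes in the 12 lines, ordered from the highest IL32 level at the left, with an asterisk for each call. IL4R runs from 1.44 with isoform 1 to −0.02 with isoform 6, while ICAM1 is at −2.41 with isoform 2 and 1.22 with isoform 4.

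No gene beside IL32 was called. Of the 10 annotated genes on each side that the tables hold, 13 of 20 passed the filter. With limma 0 of their 156 comparisons were called, against 1.51% of all tests, a share at which so short a list would hold few calls. An adjusted p below 0.05 was reached by 52 of the 156, 19 higher and 33 lower, all under the size limit. Over all genes 55221 of 180036 tests reached it. Unadjusted p was below 0.05 in 66 (42.3%, against 40.1% of all tests). Differences over the 156 comparisons ran from −0.87 to 0.46. MMP25, a metalloproteinase gene that ends at 3060726, had a mean of 1.21 TPM in parental cells and 0.929 TPM with isoform 1. ZSCAN10, a zinc finger gene that lies between 3088890 and 3099317 on the other side, was at most 0.0926 TPM in any group. TNFRSF12A, the receptor for the cytokine TWEAK, had means of 107 TPM in parental cells, 140 TPM with isoform 1 and 74.4 TPM with isoform 4. CASP16P, a pseudogene under the filter that was named after its values were seen, had 0.259 TPM in parental cells. It had 1.38 TPM with isoform 1 and 0.234 TPM with isoform 4.

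The genes most like IL32 were ranked by Pearson r over the 13 group means on the log2(TPM + 1) scale, among 1824 genes whose means spanned at least 1. The points share libraries and scale, and no test was made. C11orf86, a gene of little known function, came first with r = 0.987 and the same rank order of groups (Spearman rho 1). Its mean was 0.217 TPM in parental cells, 98.8 TPM with isoform 1 and 0.742 TPM with isoform 6. ACSL5, an enzyme that activates long-chain fatty acids, followed with r = 0.984, at 0.550 TPM in parental cells, 105 TPM with isoform 1 and 0.257 TPM with isoform 6.

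APOBEC1, the enzyme that edits apolipoprotein B mRNA in the gut, had r = 0.982 and went from 0.0403 TPM in parental cells to 46.0 TPM with isoform 1. SRXN1, which restores oxidised peroxiredoxins, also had r = 0.982 but started high, at 69.6 TPM in parental cells and 292 TPM with isoform 1. IRAK2, a kinase of the interleukin 1 and Toll-like receptor pathway, had r = 0.981, with 3.53 TPM in parental cells, 29.1 TPM with isoform 1 and 4.45 TPM with isoform 4. The pseudogene AQP7P3 (0.980), TTC7A (0.976) and the unnamed locus LOC101928994 (0.976) completed the first 8. AQP7P3 is a copy of a gene family, so reads may be split among its relatives.

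In all, 40 genes had r of 0.95 or more and 9 had −0.95 or below. The most opposite were LINC01503 (−0.963), a long non-coding RNA, CTHRC1 (−0.960), a secreted glycoprotein, IER5L (−0.959) and E2F1 (−0.958), a transcription factor of S-phase entry. E2F1 was at 29.8 TPM in parental cells, 14.7 TPM with isoform 1 and 31.6 TPM with isoform 6. Over the 12 lines without the parental cells 7 of the 8 most alike genes remained in the first 8, and by Spearman rho 2 of the 8 did.

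**Figure D5:**
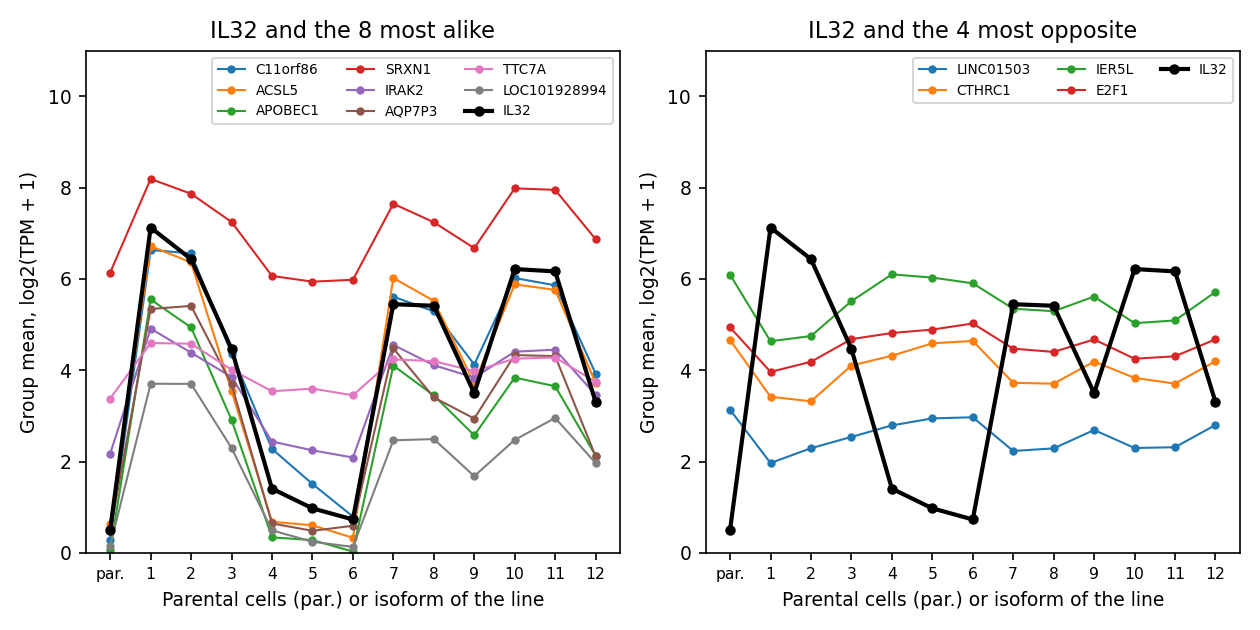
Group means (log2(TPM + 1)) of IL32, in black, with the 8 genes most like it in the left panel and the 4 most opposite in the right panel, over parental cells and the 12 lines. C11orf86 and ACSL5 span nearly the range of IL32 (6.35 and 6.39 against 6.62). They leave it in some lines, such as ACSL5 at 3.55 and IL32 at 4.47 with isoform 3. SRXN1 spans 2.25 from a higher base and, unlike IL32, lies below its parental mean with isoforms 4 to 6.

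Markers of other cell types were low. IL32 is abundant in T and natural killer cells. The summed level of 10 markers of those cells was 5.18 to 12.9 TPM per library, with 1 to 3 of the 10 genes at a group mean of 1 TPM or more. It was 6.66 TPM as a mean with isoform 1, 7.72 TPM in parental cells and 11.8 TPM with isoform 4. CD3D was listed at 0 in 11 of 13 groups, and PTPRC, the pan-leukocyte marker, had group means of at most 0.124 TPM. Sums over 7 myeloid and B cell markers were 1.86 to 3.59 TPM, and over 6 fibroblast markers 8.78 to 16.9 TPM. Endothelial markers summed to 1.69 to 6.93 TPM with 1 of 4 at 1 TPM or more, namely PECAM1, at 2.32 TPM in parental cells, 5.75 TPM with isoform 1 and 1.46 TPM with isoform 6. The epithelial sum was 5622 TPM with isoform 1, 3283 TPM in parental cells and 2763 TPM with isoform 6. It did not run with IL32 in every line: isoform 10, with 73.4 TPM of IL32, had 3138 TPM, below parental cells, and isoform 12 had 2763 TPM. The part of these epithelial and endothelial values in the IL32 result was not tested. In bulk RNA, fewer cells that make IL32 and less IL32 per cell cannot be told apart.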

How the data were processed

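RNA-seq was analysed from 39 libraries in 13 groups. Per the submitters' processing notes, tools included Trimmomatic 0.36, FastQC 0.11.5, kallisto 0.44.0 and DESeq2 1.22.2, with GRCh38.p12. The deposited TPM values per gene came from the authors' quantification. The authors' deposited tables also give a log2 fold change, p-values and a baseMean score per line, which were used only to describe IL32. Read depth per library is unknown. HNF4A was the sum of 12 rows, 29 row names that differ in the isoform 4 and 5 tables were matched by row order, and those 6 libraries carry no replicate number.

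limma 3.58.1 in R 4.3.3 was fitted to log2(TPM + 1) over all 39 libraries with 1 coefficient per group and a mean-variance trend, on genes with a mean of 1 TPM or more. P-values were adjusted by Benjamini-Hochberg over all 15003 genes of a comparison. The fit was tested on simulated data. IL32 and the gene lists were chosen with earlier results of these data known. Named were IL32, HNF4A, up to 6 called members a list, the 8 genes most like IL32 and the 4 most opposite. ACSL5 and C11orf86 were also fixed for naming, and further list members were named after their values were seen. Alternatives changed the pseudocount, scaling, filter, trend, block, size limit and each library in turn.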

Additional observations from a re-analysis of the deposited data

Results flagged for a closer look

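ICAM1 stood out because lines moved it in opposite directions against the same parental cells. All 3 isoform 4 libraries lay above the parental libraries, and all 3 isoform 2 libraries lay below them. The difference between these lines, isoform 4 minus isoform 2, was 3.63 ± 0.17 on the log2(TPM + 1) scale (SE; limma adjusted p = 4.52e-17). These lines were picked as the highest and lowest in ICAM1, so the p-value is for a gap chosen from the data. With a pseudocount of 5 the isoform 4 call was lost (0.89), and a filter of 5 TPM left ICAM1 untested. Each isoform is 1 line, so isoform and line cannot be told apart. Groups of 3 libraries were too small to look for single outlying values.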

How the results depend on the processing

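The IL32 differences kept their sign under every alternative run. The pseudocount set their size, because parental IL32 is below 1 TPM. With a pseudocount of 0.1 they were 8.07, 7.37, 5.36, 1.74, 1.02, 0.54, 6.37, 6.34, 4.33, 7.15, 7.10 and 4.12 for isoforms 1 to 12. With a pseudocount of 5 they were 4.73, 4.06, 2.27, 0.30, 0.14 and 0.063 for isoforms 1 to 6 and 3.13, 3.10, 1.496, 3.85, 3.81 and 1.36 for isoforms 7 to 12. The mean difference of isoforms 4 to 6 from the other 9 lines, −4.30, became −5.15 and −2.92. With 1 library left out at a time, the isoform 3 difference ran from 3.75 to 4.21 and the isoform 4 difference from 0.70 to 1.03. The IL32 and HNF4A coefficient was −0.50 on the TPM scale.

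Counts of calls over the 12 lines moved as follows. For all genes, 2726 calls became 4500 with a pseudocount of 0.1, 1109 with a pseudocount of 5, 1712 with a filter of 5 TPM and 55221 without the size limit. In the same order NF-kB response genes (11 calls) gave 18, 3, 5 and 88. Interleukins and receptors (12 calls) gave 3 with a pseudocount of 5, 4 with the 5 TPM filter and 126 without the size limit. Inducers and receptors (3 calls) gave 0 with a pseudocount of 5, 5 with no filter and 50 without the size limit, and between 1 and 3 with 1 library left out, the lowest without parental library 2. Partners and downstream cytokines (1 call) gave 2 with a pseudocount of 0.1 and 36 without the size limit. Without that limit, NF-kB subunits and kinases gave 23 and the neighbours of IL32 gave 52. Of 27 called comparisons of named list genes, 20 were lost with a pseudocount of 5, 14 were not tested with the 5 TPM filter, 6 were called in every alternative and none reversed.

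Deviations of libraries with the same replicate number had a median r of 0.054, against −0.029 for other numbers. Among the 3 numbers, 29 of 33 libraries lay closest to their own, so libraries of the same number shared part of their deviation. The main fit does not model this shared part. With r from −0.18 to 0.23 and 38 of 165 pairs over 0.1, the numbers were not taken as pairs. A replicate block over the 10 lines with numbers gave 2605 calls against 2601 without it, and list counts of 3, 0, 1, 9, 0 and 12, in the order inducers, subunits, partners, response genes, neighbours and interleukins, all unchanged. The IL32 differences, 0.22 to 6.62, cannot change under the block, because each of these groups holds the same 3 numbers.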
